A study of Mus musculus with 81 samples.

Results

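Intracisternal A particle (IAP) elements are mouse endogenous retroviruses of the ERVK class, and the internal region is the stretch between their long terminal repeats (LTRs). The internal regions studied here were all annotated LTR loci whose species name, the name before the first colon of the locus identifier, began with IAP and contained -int, leaving out names that began with IAPEY or IAPLTR. This rule used names only and took 9967 of 970384 loci, and 5 of 680 species names. They were 7295 loci of IAPEz-int, 1318 of IAP-d-int, 477 of IAP1-MM_I-int, 126 of IAPA_MM-int and 751 of IAPEy-int. The last name, with a lower-case y, was kept because the rule was applied to the letter, and 9216 loci remained without it.

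The internal region of an IAP element carries the gag, pro and pol genes, and it is transcribed from a promoter in the upstream LTR. Complete copies can move to new sites, so most cells of the mouse silence them by DNA methylation and by repressive histone marks. Much of the genome loses its DNA methylation in fetal germ cells, but IAP copies largely resist that loss. In male germ cells methylation is laid down again before birth, at retrotransposons guided in part by piRNAs, which are small RNAs matched to transposons.

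F0 dams of the strain OG2, which carries a Pou5f1-EGFP transgene that lights up germ cells on a C57BL/6 background, were given, from before mating through pregnancy and lactation, 50 nM tributyltin (TBT), an organotin compound, or the vehicle DMSO in drinking water. Testes of F1 and F3 fetuses at E18.5 were sorted by EGFP and by side scatter, the light that a cell deflects sideways. The F1 RNA libraries comprised 5 DMSO and 7 TBT libraries of P4 germ cells, 4 and 7 of P5 germ cells, and 5 and 7 of P6 somatic cells, and the F3 generation gave 4 DMSO and 5 TBT libraries of each population. DNA enriched for methylation was sequenced from P6 cells alone, in 3 DMSO and 4 TBT libraries of F1 and in 5 and 7 of F3. P4 and P5 were EGFP-positive germline gates that differed in side scatter, and P6 was EGFP-negative. Every group, controls included, carried the transgene, and only the F0 dams had received TBT or DMSO. The study's methods call the methylation libraries independently generated. The labels do not say that RNA libraries came from separate fetuses or litters, so p-values measure the spread between these libraries, which may be partly technical. RNA was primed with oligo(dT) and counted without strand, so reads of an IAP element and of a gene that contains it cannot be told apart.

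The 5 species differed in length and in how far short reads can tell their copies apart. The median length was 754 bases for IAPEz-int, 222.5 for IAP-d-int, 343 for IAP1-MM_I-int, 255 for IAPA_MM-int and 2018 for IAPEy-int. Loci of at least 2000 bases numbered 1982 in IAPEz-int, 64 in IAP-d-int, 81 in IAP1-MM_I-int, 0 in IAPA_MM-int and 376 in IAPEy-int. An IAPLTR locus lay within 50 bases on both sides of 809 IAPEz-int loci, of which 411 had a pair of IAPLTR1a_Mm repeats and 320 a pair of IAPLTR1_Mm repeats. Among the other 4 species, only 2 IAPA_MM-int loci were flanked in this way.

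The share of 75-base words that occurred at a single place in the GRCm38 genome limits how uniquely a read can be placed. Its median over loci was 6.95% in IAPEz-int and 3.23% in the IAPEz-int loci of at least 2000 bases, against 86.1% in IAP-d-int and 87.3% in IAP1-MM_I-int. IAPA_MM-int had a median of 5.86% and IAPEy-int of 29.9%. IAPEz-int and IAPA_MM-int were therefore sets of near-copies, whereas most IAP-d-int and IAP1-MM_I-int loci held sequence of their own. IAPA_MM-int was also the richest in CpG, with a median of 5.51 CpGs per 100 bases, against 1.98 in IAPEz-int and 1.29 to 1.43 in the other 3 species.

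Outside annotated genes lay 7785 of the loci (78.1%), against 64.5% of all LTR loci. A further 2024 lay in introns and 158 overlapped exons. Among the loci in genes with a strand of their own, 1534 were antisense to the gene and 581 sense, so that 72.5% were antisense.

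The following sequences are the first bases of loci named in the results. The start of a complete internal region holds the site where a transfer RNA primes reverse transcription, and a single locus can lack that start. An 18-base word, attggtgccgaattccgg, stood within the first 20 bases of 469 of the 785 flanked IAPEz-int loci of at least 2000 bases (59.7%). It occurred in 996 of all IAPEz-int loci (13.7%), in 48 IAPA_MM-int loci (38.1%), in 0 loci of the other 3 species and in 5 of 960417 other LTR loci. All are reference sequence of GRCm38 in the orientation of the element, 120 bases each, and capitals mark the bases aligned to the word. The first belongs to the IAPEz-int locus with the highest level outside genes in P6, chr5:30229703-30229822 on the minus strand. Its 17 capital bases align to the word without its first base and differ from it by T13A, the word's base first and its position counted from 1 at the word's 5′ end. The next is the start of an IAPEz-int locus in an intron of Atp6v1e1, chr6:120812723-120812842 on the plus strand. The third is the start of the locus that differed with exposure in F1 P5, chr6:104707203-104707322 on the minus strand. The fourth is the start of the called member with the largest rise from P4 to P5 in F1 among those whose libraries did not overlap, chr6:107280348-107280467 on the minus strand. The word was in neither of these last sequences, which says nothing about how complete copies of their species begin.
IAPEz-int of chromosome 5: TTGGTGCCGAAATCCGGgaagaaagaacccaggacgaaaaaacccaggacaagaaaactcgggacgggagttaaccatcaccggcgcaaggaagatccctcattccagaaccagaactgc
IAPEz-int in Atp6v1e1: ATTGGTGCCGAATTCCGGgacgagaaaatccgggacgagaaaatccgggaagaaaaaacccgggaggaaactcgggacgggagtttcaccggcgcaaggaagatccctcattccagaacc
IAP1-MM_I-int in Cntn6: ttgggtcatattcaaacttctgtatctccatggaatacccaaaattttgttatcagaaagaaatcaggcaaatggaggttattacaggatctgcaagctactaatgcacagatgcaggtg
IAP-d-int of chromosome 6: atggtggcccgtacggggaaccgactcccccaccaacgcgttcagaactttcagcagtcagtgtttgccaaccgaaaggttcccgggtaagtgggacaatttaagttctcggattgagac

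Libraries held 2824806 to 6304053 reads at LTR loci in F1 and 246520 to 8161548 in F3. In F3, 4 germline libraries were shallower than the others, namely P4 TBT 5 (833449 reads), P4 TBT 9 (1187234), P5 TBT 5 (246520) and P5 DMSO 2 (1606422). Loci outside genes took 11.4% and 12.1% of the reads in P4 TBT 5 and TBT 9, and 2.05% to 5.10% in the other F3 P4 libraries. In F3 P5 they took 23.5% and 27.9% in DMSO 1 and 2, 31.1% in TBT 5 and 6.06% to 11.9% in the other 6, and DMSO 1 and 2 also had the highest IAPEz-int levels outside genes, 2003 and 1189 CPM. In F1 P6, TBT libraries 7 and 8 had 6.79% and 6.95% of their reads outside genes and the other 10 had 0.999% to 1.82%. Summed levels of LTR loci in germ cell marker genes (8 of 10 genes with such loci) had group medians of 11209 and 12600 CPM in F1 P4, 7061 and 8335 in F1 P5, and 24.9 and 37.4 in F1 P6, in DMSO and TBT respectively. For Sertoli cell markers (6 of 8 genes) the same medians were 42.6 and 24.5 in P4, 172 and 66.6 in P5, and 2474 and 2257 in P6. The population labels thus matched these markers, and the Sertoli signal was higher in P5 than in P4. All levels are in the deposited unit, CPM, which is reads scaled to library size and adjusted by TMM, a trimmed-mean factor for library composition. In bulk samples, fewer cells of a type and less RNA per cell cannot be told apart.

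By summed level over all loci, IAPEz-int was the most abundant of the 5 species in every population. Its total in F1 P4 was 3481 ± 183 CPM in DMSO (SD, n = 5) and 3855 ± 299 in TBT (SD, n = 7). In F1 P5 it was 3297 ± 86.3 (n = 4) and 3472 ± 430 (n = 7), and in F1 P6 3262 ± 162 (n = 5) and 3363 ± 158 (n = 7). These totals lay within a narrow range in 3 populations of cells. In F3 the DMSO and TBT totals were 4449 ± 416 and 3485 ± 1091 in P4, 4131 ± 757 and 3614 ± 1482 in P5, and 3413 ± 157 and 3425 ± 157 in P6 (n = 4 and 5). The F3 germline groups had the wider spread, with the shallow libraries among them. As a share of all LTR signal, the F3 P4 means were 0.341% ± 0.020 in DMSO and 0.339% ± 0.016 in TBT (SD).

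The other species differed more between populations. IAP1-MM_I-int had means in DMSO and TBT of 618 and 561 CPM in F1 P4, 675 and 823 in F1 P5, and 277 and 293 in F1 P6. IAP-d-int had 261 and 292 in F1 P4, 437 and 502 in F1 P5, and 70.7 and 123 in F1 P6. IAPEy-int had 23.1 and 21.5 in F1 P4, 49.0 and 58.2 in F1 P5, and 60.1 and 94.9 in F1 P6. IAPA_MM-int lay between 65.9 and 88.5 in all 12 groups of both generations. In F3 the same order of species was found, IAPEz-int above IAP1-MM_I-int above IAP-d-int, in P4, P5 and P6. Germline and somatic tables had been scaled separately, as had those of F1 and F3, so levels in P6 and in the other generation are given side by side and were not tested against P4 or P5.

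**Figure D1:**
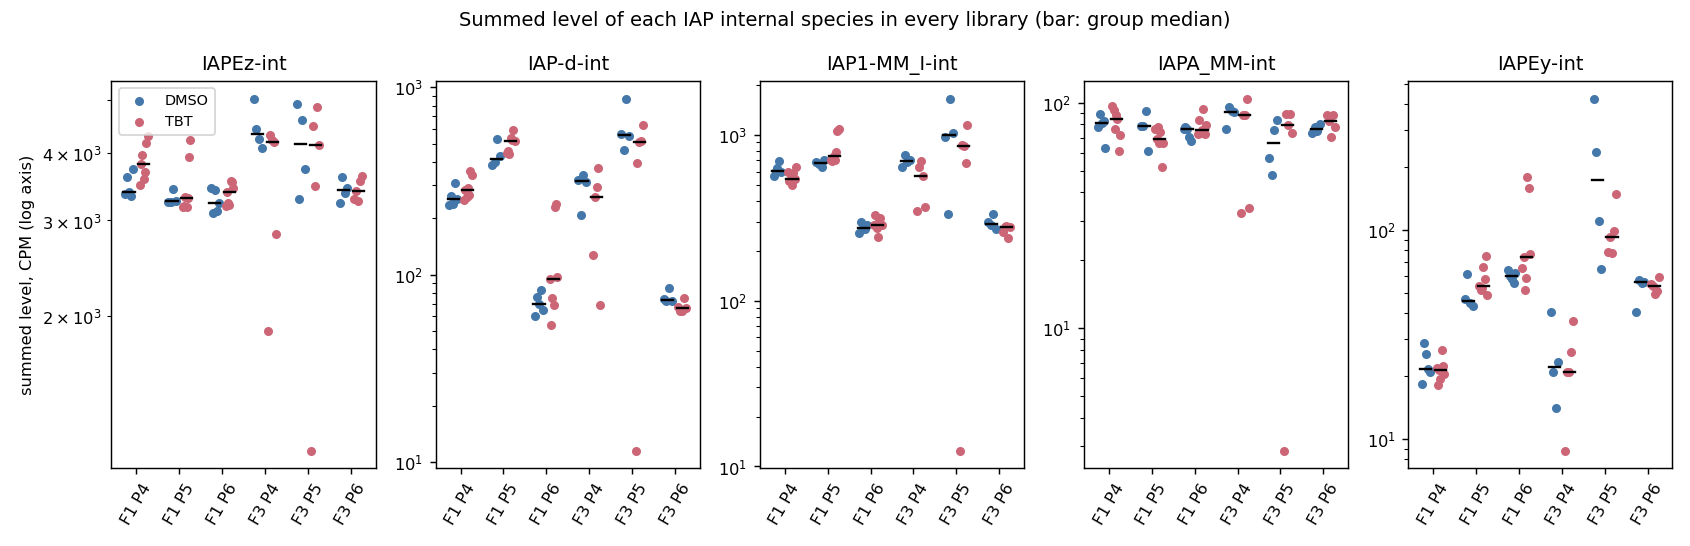
Summed level (CPM, log axis) of each species in every library, by population, with DMSO and TBT libraries as points and a bar at each group median. IAPEz-int stood above the other 4 species in all populations, and the DMSO and TBT points of every species overlapped in every population.

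Most of this signal lay inside genes. Introns held 97.2% of the IAPEz-int signal in F1 P4, 90.4% in F1 P5 and 84.8% in F1 P6, and 97.6%, 76.2% and 86.3% in the F3 populations in the same order. Loci outside genes, although they were 75.2% of the IAPEz-int loci, held 0.441%, 7.33% and 12.9% of the signal in F1 and 0.728%, 21.6% and 11.3% in F3. Antisense loci took 86.8% to 93.7% of the IAPEz-int signal in genes. IAP-d-int departed from this pattern in germ cells, with 69.2% and 73.1% of its signal outside genes in F1 P4 and P5, and 33.4% in F1 P6. The F1 P6 value went with TBT libraries 7 and 8, whereas the DMSO means of P6 were 10.8 of 70.7 CPM outside genes in F1 and 10.2 of 75.8 in F3. IAPEy-int departed from the pattern in P5, with 19.9 of 54.8 CPM inside genes in F1 and 23.2 of 148 in F3. In F1 P4 it had 19.4 of 22.2 CPM inside genes. IAP1-MM_I-int had 447 of 838 CPM inside genes in F3 P5. At exons it had 38.9% of its signal in F1 P5 and 76.8% in F1 P6.

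Many intronic loci did not hold separate measurements. Among intronic members with a mean of at least 10 reads per library, 201 of 228 (88.2%) in F1 P4 had exactly the same read count, in every library, as another LTR locus of the same gene. The share was 90.3% in F3 P4 (176 of 195), 42.9% in F1 P5 (118 of 275), 33.6% in F3 P5 (81 of 241), 48.3% in F1 P6 (130 of 269) and 41.4% in F3 P6 (154 of 372). The partner was over 1000 bases away for 82.0% of the intronic members in F1 P4 and 85.1% in F3 P4. Allowing a difference of 2 reads or 5% in each library, 93.4% and 96.4% of the intronic members of F1 P4 and F3 P4 had such a distant partner, and 56.0% to 80.7% in the other populations. Equal counts were also common at intronic LTR loci of all kinds, at 70.1% in F1 P4 and 72.1% in F3 P4. No member outside genes had one, with 17, 55 and 21 such loci compared in the F1 populations and 20, 76 and 35 in those of F3.

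Atp6v1e1, which encodes a subunit of the vacuolar proton pump, shows the pattern. In F1 P4, 7 of its 13 LTR loci, 5 of them IAP internal regions spread over chr6:120810185-120817386, held the same 4077 reads in all, library by library. In F3 P4, 8 loci held the same 4611 reads. In F1 P5 the 3 IAPEz-int loci named by level held 2944, 2938 and 2940 reads, almost equal but no longer identical. Counting equal loci of a gene once took the IAPEz-int total of F1 P4 from 3699 to 1424 CPM (38.5% left) and that of F3 P4 from 3914 to 1495 (38.2% left). In the other populations 77.2% to 83.4% was left. Only loci with exactly equal reads were taken out, judged in each population by itself. Near-equal loci, such as those of Atp6v1e1 in F1 P5, stayed in. The shares left therefore do not measure how much repeated counting each population held. How the equal counts arose was not tested, and the handling of reads that cross introns or that align to several places is not given in the sources used here.

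**Figure D2:**
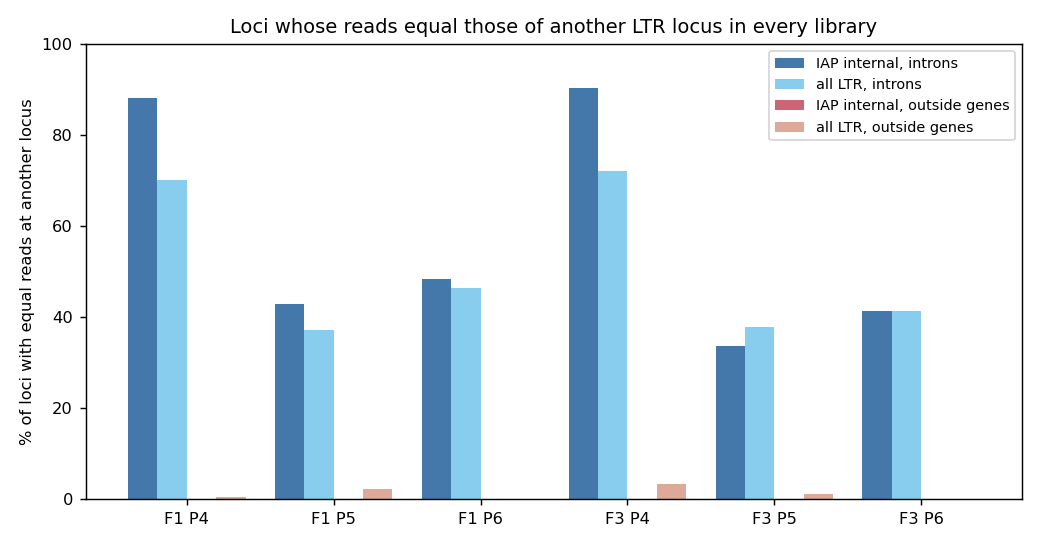
Share of loci (%, loci with a mean of at least 10 reads per library) whose reads equalled those of another LTR locus of the same gene, or of another locus outside genes on the same chromosome, in every library of a population. IAP internal regions in introns reached 88.2% in F1 P4 and 90.3% in F3 P4, while those outside genes stayed at 0 in all 6 populations.

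The loci outside genes were separate measurements in this sense, and there the populations differed strongly. IAPEz-int loci outside genes summed in F1 P4 to 16.8, 7.20, 31.4, 42.9 and 10.5 CPM in the DMSO libraries, and the TBT libraries had a lowest value of 5.76, a median of 10.9 and a highest of 21.5. In F1 P5 the DMSO libraries had 190.4, 220.1, 336 and 121 CPM and the TBT libraries 138 at the lowest, 259.5 at the median and 436 at the highest. Every P5 library was above every P4 library. In F3 P4 the sums were 41.8, 16.1, 21.6 and 31.8 CPM in DMSO and 56.2, 9.95, 9.38, 34.7 and 34.7 in TBT. In F3 P5 they were 2003, 1189, 853 and 319.7 CPM in DMSO and 616, 533, 308, 929.7 and 735 in TBT. The P4 and P5 libraries did not overlap in F3 either, with P5 at the higher level.

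In P6 the IAPEz-int sums outside genes were 419, 362, 364, 374.5 and 337 CPM in the F1 DMSO libraries, and the TBT libraries had a lowest value of 282, a median of 400.0 and a highest of 736. The F3 P6 sums were 366, 408, 442.5 and 443 CPM in DMSO and 291, 381, 317, 445 and 395 in TBT. As a share of all LTR signal outside genes, IAPEz-int made up a median of 0.0727% and 0.0533% in F1 P4 (DMSO and TBT), 0.436% and 0.376% in F1 P5, and 2.99% and 2.18% in F1 P6. In F3 the medians were 0.0667% and 0.0406% in P4, 0.738% and 0.585% in P5, and 3.07% and 2.81% in P6. The share was thus lowest in the P4 germ cells and highest in the somatic cells of both generations. IAPEy-int had another order, with group means outside genes of 3.39 and 2.24 CPM in F1 P4, 26.7 and 39.7 in F1 P5 and 2.59 and 30.5 in F1 P6, where TBT libraries 7 and 8 stood above the rest, and 181 and 80.0 in F3 P5 against 1.48 and 0.619 in F3 P6.

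IAP-d-int and IAP1-MM_I-int outside genes had higher group means in the germ cells than in P6. IAP-d-int had group means of 168 and 211 CPM in F1 P4, 314 and 369 in F1 P5, and 10.8 and 50.0 in F1 P6, where TBT libraries 7 and 8 alone had 127 and 153. In F3 the DMSO and TBT means were 206 and 161 in P4, 473 and 298 in P5, and 10.2 and 6.86 in P6. IAP1-MM_I-int had 113 and 110 in F1 P4, 226 and 315 in F1 P5, and 23.1 and 46.4 in F1 P6, where TBT libraries 7 and 8 had 91.0 each and the other 5 had 17.3 to 35.2. In F3 it had 263 and 140 in P4, 541 and 270 in P5, and 26.5 and 18.8 in P6. In F3 P5, TBT library 5 had 11.5 CPM of IAP-d-int and 2.87 of IAP1-MM_I-int. For both species the DMSO means of P4 and P5 lay above those of P6 in either generation, a difference that was not tested because the tables were scaled separately.

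**Figure D3:**
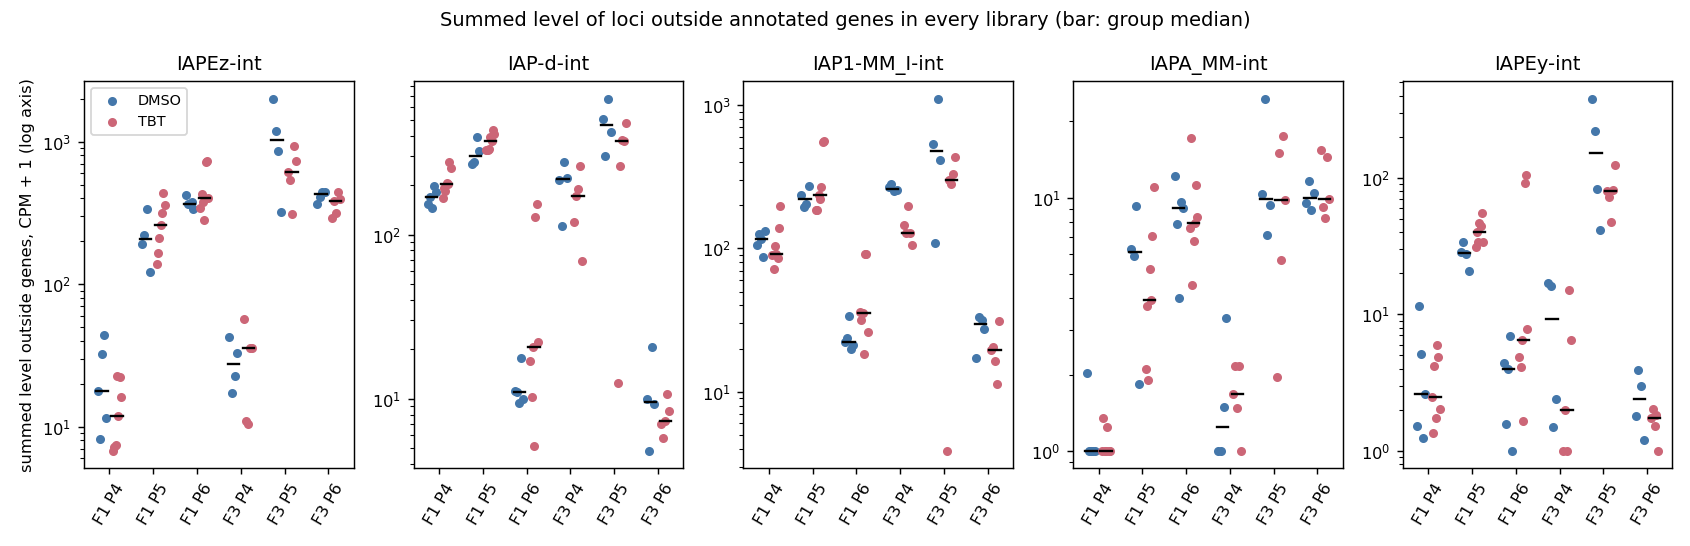
Summed level of the loci outside annotated genes (CPM plus 1, log axis) of each species in every library, with DMSO and TBT libraries as points and a bar at each group median. IAPEz-int lay at 5.76 to 56.2 CPM in P4 and at 121 or more in P5 and P6, whereas the group medians of IAP-d-int and IAP1-MM_I-int were higher in P4 and P5 than in P6.

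Individual loci differed in the same way. The IAPEz-int locus chr5:30223381-30229822 (6442 bases, minus strand, outside genes, 2758 bases from Selenoi) had the highest level of the members outside genes in F1 P6 and held 9.93% of their signal. Its level was 0 to 4.62 CPM in F1 P4, with a median of 9.88 in F1 P5 (3.53 to 14.0) and of 52.7 in F1 P6 (33.9 to 67.0). In F3 the medians were 0 (0 to 4.67), 22.7 (3.83 to 93.1) and 42.9 (37.5 to 57.8). P6 stood apart from P4 in both generations, and the P5 and P6 ranges overlapped in F3. With 5.67% of its 75-base words unique, the reads of this locus cannot be told apart from those of other copies along most of its length.

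In germ cells the leading loci outside genes belonged to other species. An IAP-d-int locus at chr11:31548397-31548795 had a mean of 54.0 CPM in F1 P4 and 43.9 in F1 P5. An IAP1-MM_I-int locus at chrX:9329227-9331590 had 39.4 in F1 P4, 45.5 in F1 P5 and 75.5 in F3 P4. The IAPEz-int start word described above was in 0 loci of either species.

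Inside genes, the highest level of any single locus was at an exon. The IAP1-MM_I-int loci chr13:111487910-111488181 and chr13:111488230-111488349 overlap exon 2 of Gpbp1, which encodes a GC-rich promoter binding protein, in a stretch annotated as untranslated, and lie on the strand of the gene. The first had a median of 269 CPM in F1 P4 (215 to 313), 188 in F1 P5 (161 to 236) and 161 in F1 P6 (133 to 199). The second had medians of 97.6, 76.3 and 60.6 CPM. The pair lies inside Gm49496 as well, and reads of that gene, of Gpbp1 and of the element are one signal here. The IAPEz-int locus chr6:120812723-120813483 in Atp6v1e1, antisense to the gene, had medians of 72.6, 52.6 and 22.0 CPM in F1 P4, P5 and P6, and 144, 83.0 and 21.2 in F3.

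The question whether exposure of the F0 dams changed IAP transcripts was addressed by comparing TBT with DMSO in each population. No species total passed a false discovery rate (FDR) of 0.05 by limma, with 0 of 5 called in each of the 6 populations, against 0.0% of the 680 species. In F1 P4 the differences on the log2 scale were 0.14 ± 0.05 for IAPEz-int (SE, FDR 0.448), -0.14 ± 0.07 for IAP1-MM_I-int (FDR 0.448) and 0.16 ± 0.10 for IAP-d-int (FDR 0.472). IAPEz-int totals of 4 of the 7 TBT libraries lay above all 5 DMSO libraries, whose range was 3323 to 3740 CPM, and those of 3 lay within it. In F1 P5 the differences of IAP1-MM_I-int, IAPEy-int and IAP-d-int were 0.26 ± 0.13, 0.25 ± 0.13 and 0.20 ± 0.10 (limma, FDR 0.909 for each). In F3 P6 IAP-d-int differed by -0.17 ± 0.07 (FDR 0.483) and IAP1-MM_I-int by -0.15 ± 0.07 (FDR 0.523). Totals of the TBT and DMSO libraries overlapped for every species in every population.

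Several of the larger differences went with single libraries. In F1 P6, IAP-d-int differed by 0.58 ± 0.36 and IAPEy-int by 0.50 ± 0.30 (limma, FDR 0.718 for each). Outside genes, IAP-d-int had 127 and 153 CPM in TBT libraries 7 and 8 and 4.16 to 21.3 in the other 5, against 8.41 to 16.6 in DMSO. Without these libraries, which also had the high share of reads outside genes, the differences were 0.12 ± 0.16 and 0.11 ± 0.11. In F3 P4 IAP-d-int differed by -0.60 ± 0.49, IAP1-MM_I-int by -0.47 ± 0.24 and IAPEz-int by -0.42 ± 0.26, and without TBT libraries 5 and 9 by 0.08 ± 0.21, -0.14 ± 0.09 and -0.06 ± 0.07. In F3 P5 the differences of IAP-d-int and IAP1-MM_I-int were -1.32 ± 1.09 and -1.20 ± 1.25 (limma, FDR 1.00), and TBT library 5 had the lowest value of both. Without it the differences were -0.23 ± 0.23 and 0.02 ± 0.45 (FDR 0.551 and 0.982). IAPEy-int in F3 P5 had a mean of 209 CPM in DMSO (65.3 to 424) and 99.1 in TBT (77.4 to 148). Without TBT library 5 it differed by -0.69 ± 0.56 (limma, FDR 0.487). As a share of all LTR signal, IAP-d-int had 0.0531% to 0.0772% in the 4 DMSO libraries and 0.00487% to 0.0521% in the 5 TBT libraries. The groups did not overlap and TBT was lower, as in 0.591% of all 677 species, and the next lowest TBT library had 0.0338%.

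Restricted to loci outside genes, again 0 of 5 species passed in each population, against 0.0% of 677 species in 5 populations and 0.148% in F3 P6. IAP1-MM_I-int in F3 P4 came closest, with 267, 280.2, 250.1 and 255 CPM in DMSO and 144, 128, 196, 127 and 104 in TBT. All 5 TBT libraries lay below all 4 DMSO libraries, an arrangement shown downward by 0.781% of the species outside genes in F3 P4. The difference was -0.94 ± 0.19 on the log2 scale (limma, FDR 0.327). With libraries brought to equal totals outside genes it was -0.89 ± 0.50 (FDR 0.767). In F3 P6 the IAPEz-int share of LTR signal outside genes was, from lowest to highest, 3.00%, 3.06%, 3.08% and 3.33% in DMSO and 2.21%, 2.47%, 2.81%, 2.94% and 2.97% in TBT. The groups did not overlap, as for 1.29% of the species there with TBT lower, while the CPM values of the same loci did overlap.

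Locus by locus, the background of calls was very low. In F1 P4, 0 of 413 member loci that passed the filter on low values were called, against 0.0% of 91621 loci. In F1 P6 none of 444 passed (0.00341% of all loci), in F3 P4 none of 350 (0.0%), in F3 P5 none of 567 (0.0%) and in F3 P6 none of 529 (0.0343%). At an unadjusted p under 0.05 there were 39, 33, 8, 12 and 46 member loci in these comparisons, against 6496 of 91621, 3244 of 88037, 1424 of 86412, 1066 of 105423 and 8346 of 104835 of all loci. The edgeR quasi-likelihood and DESeq2 tests on recovered reads called 1 member locus each in F3 P6, against 61 and 84 of all loci there, and 0 in F1 P4, F1 P6, F3 P4 and F3 P5. edgeR's likelihood ratio test, which the study names, called 17 member loci in F3 P5 (3297 of all loci, 3.13%), 3 in F3 P6 (335, 0.320%), 1 in F1 P6 (44) and 0 in F1 P4 and F3 P4. The median differences of the member loci and of all loci were 0.06 and 0.04 in F1 P4, -0.04 and -0.04 in F1 P6, -0.65 and -0.69 in F3 P4, 0.02 and 0.15 in F3 P5, and 0.01 and 0.02 in F3 P6. In F3 P5 they had opposite signs under equal totals, at -0.19 and 0.04, and in edgeR's quasi-likelihood test, at -0.18 and 0.04. In F3 P4 both were positive in DESeq2, at 0.14 and 0.06.

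In F1 P5, 1 of 622 member loci passed, against 0.0106% of 122303 loci. This was the IAP1-MM_I-int locus chr6:104704407-104707322, 2916 bases on the minus strand, antisense in an intron of Cntn6, a contactin of neural cell adhesion. Its level was 0.478, 0.467, 0 and 2.86 CPM in the DMSO libraries, and the TBT libraries had a lowest value of 3.65, a median of 5.48 and a highest of 22.0. All 7 TBT libraries were above all 4 DMSO libraries. The difference was 3.42 ± 0.55 on the log2 scale (limma, FDR 0.0359), a scale with 1 unit added, which understates changes at low levels. The locus shared its counts with no other locus in F1 P5, and 79.1% of its 75-base words were unique. Its call was lost in edgeR's quasi-likelihood test (FDR 0.186), in DESeq2 (FDR 0.0673), with the first number of the library label as a random effect (FDR 0.05001, just above the threshold), with 2 such numbers among the TBT libraries, and without any 1 of 8 of the 11 libraries, and the FDR ranged from 1.57e-13 to 0.186 over the alternatives. In F3 P5 the same locus had a median of 7.92 CPM in DMSO (0 to 21.6) and 4.81 in TBT (0 to 25.5), and in F1 P4 its median was 0.

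The number of members outside genes with any read also differed in F1 P5. It was 495 to 535 of 7785 loci in the DMSO libraries (6.36% to 6.87%) and 664 to 985 in the TBT libraries (8.53% to 12.7%). The groups did not overlap, and neither did those of all LTR loci outside genes, at 4.86% to 7.52% and 8.49% to 14.5%. Total reads per library overlapped, at 3935531 to 5761940 in DMSO and 3835481 to 5639202 in TBT. Sertoli markers had the lower median in TBT in this population, as given above, and the part of cell makeup in this count was not tested.

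Where no locus passed, the member with the lowest p is described without a call. In F3 P6 it was the IAPEz-int locus chr2:118556820-118557899 outside genes, with 12.5, 14.2, 15.6 and 3.74 CPM in DMSO and 3.68, 4.65, 5.77, 4.12 and 3.93 in TBT. Of the DMSO libraries 3 were above all TBT libraries and the other was among them (-1.18 ± 0.29, limma FDR 0.238). In F1 P6 the group medians of this locus were 9.16 and 9.86. In F3 P4 it was the IAP1-MM_I-int locus chr6:142230391-142230712 outside genes, with 16.4, 4.89, 13.5 and 3.97 CPM in DMSO and 0, 0, 0.995, 1.88 and 0.233 in TBT. The groups did not overlap (-3.81 ± 1.08, FDR 0.870). In F3 P5 the IAP1-MM_I-int locus chr10:83454933-83455377 had 32.5, 54.4, 0.553 and 0.462 CPM in DMSO and was at 0 in all 5 TBT libraries (FDR 1.00). In F1 P4 it was IAPEz-int chr11:6141851-6148283 in Nudcd3 (0.76 ± 0.24, FDR 0.616) and in F1 P6 IAPA_MM-int chr2:122795978-122796325 in Sqor (0.90 ± 0.29, FDR 0.999). Both of these last loci shared their reads exactly with other LTR loci of their gene.

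Whether the response to exposure differed between P5 and P4 was tested as an interaction. No species passed in F1 or F3 (0.0% of species in each). No locus of 460 passed in F1, against 0.000986% of all loci, or of 460 in F3, against 0.0%. The Cntn6 locus had the lowest p among members in F1 (3.48 ± 0.84 on the log2 scale, limma FDR 0.706).

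P5 was next compared with P4 within each generation, over DMSO and TBT libraries together with exposure in the model. In F1, IAPEy-int was higher in P5 by 1.25 ± 0.09 on the log2 scale (limma, FDR 8.42e-10), IAP-d-int by 0.76 ± 0.07 (FDR 4.77e-08) and IAP1-MM_I-int by 0.33 ± 0.07 (FDR 0.000608). These 3 of 5 species stood beside 23.1% of all species called higher, a share that was 46.8% with libraries brought to equal totals. IAPEz-int fell by 0.12 ± 0.05 (FDR 0.0448), 1 of 5 beside 40.3% of all species lower, or 17.2% under equal totals. The call was lost under equal totals, where the difference was 0.04, and in both edgeR tests, quasi-likelihood and likelihood ratio, where it was -0.0092 (FDR 0.890 and 0.894). With loci of equal counts in a gene taken once, its mean total was 1424 CPM in P4 and 2630 in P5. These sums cover different sets of loci, because near-equal loci stayed in, so they do not compare P5 with P4. IAPA_MM-int did not pass (-0.13 ± 0.09, FDR 0.201). In F3 only IAPEy-int passed (2.51 ± 0.38, FDR 0.00053), 1 of 5 higher beside 2.65% of all species, and 0 of 5 were lower beside 0.147%.

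The totals hid the change at loci outside genes. There, all 5 species rose in F1, IAPEz-int by 4.00 ± 0.33 on the log2 scale (limma, FDR 1.48e-09), IAPEy-int by 4.06 ± 0.46, IAPA_MM-int by 3.57 ± 0.42, IAP1-MM_I-int by 1.22 ± 0.21 and IAP-d-int by 0.86 ± 0.09. Of all species, 86.3% rose, with a median of 1.24, so a rise as such was the rule, and IAPEz-int, IAPEy-int and IAPA_MM-int lay far above that median. In F3 IAPEz-int rose by 4.87 ± 0.42 (FDR 2.61e-06), IAPEy-int by 5.32 ± 0.87 and IAPA_MM-int by 3.57 ± 0.60, and 51.1% of all species rose, with a median of 1.35. IAP-d-int (0.76 ± 0.59) and IAP1-MM_I-int (0.28 ± 0.79) did not pass in F3.

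Libraries were then brought to equal totals outside genes, a scaling chosen after the data had been seen. In F1 IAPEz-int was still higher by 2.85 ± 0.29, IAPEy-int by 3.00 ± 0.48 and IAPA_MM-int by 3.02 ± 0.45, with a median of 0.18 over all species. IAP1-MM_I-int was at 0.05 ± 0.20 and IAP-d-int fell by 0.31 ± 0.09 (limma, FDR 0.00601), so the direction of IAP-d-int turned with the scaling. In F3 the differences were 3.67 for IAPEz-int, 4.37 for IAPEy-int, 2.58 for IAPA_MM-int, -0.44 for IAP-d-int and -0.93 for IAP1-MM_I-int, beside a median of 0.27. The level of IAPA_MM-int outside genes was low, with group means of 0.0828 to 0.707 CPM in P4 and 3.99 to 11.8 in P5, so its fold rests on few reads. IAPEy-int outside genes was also low in P4, at 0.246 to 10.4 CPM in F1 and 0 to 15.8 in F3. Its folds therefore depend in part on the unit added.

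Markers of some other cells moved with these differences. In F1, 12 of 12 tested LTR loci of Sertoli marker genes were higher in P5, as were 9 of 12 of endothelial markers, beside 17.0% of all loci. Of the other somatic lists 0 were higher, with 0 of 3 loci of Leydig cell markers called, 2 of 2 of macrophage and blood markers lower and 2 of 2 of smooth muscle and peritubular markers lower. Under equal totals the lower loci were 0 of 2 for macrophage and blood markers and 1 of 2 for smooth muscle and peritubular markers. Loci of germ cell markers were lower in 183 of 185 cases, and in 141 with libraries brought to equal totals. In F3, 4 of 5 loci of Sertoli markers were higher in P5, beside 0.985% of all loci, and 0 were called of 6 endothelial, 7 Leydig, 2 macrophage and blood, 3 smooth muscle and peritubular and 185 germ cell marker loci. Loci of a gene share reads, so each marker gene is 1 observation rather than as many. Of the Sertoli markers, Cst9 had the highest mean in P5, 66.6 CPM in F1 and 101 in F3, beside 15.6 and 7.45 in P4. The filter took the mean over P4 and P5, so loci high in P5 alone could pass it. These marker counts are therefore descriptions. The part of somatic cells in the P5 levels was not tested. The Sertoli marker level of F1 P5 had medians of 172 and 66.6 CPM in DMSO and TBT beside 2474 and 2257 in P6, and IAPEz-int outside genes had medians of 205 and 259.5 in P5 beside 364 and 400.0 in P6. IAP-d-int and IAP1-MM_I-int, by contrast, were lower in P6 than in P5 by their group means.

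**Figure D4:**
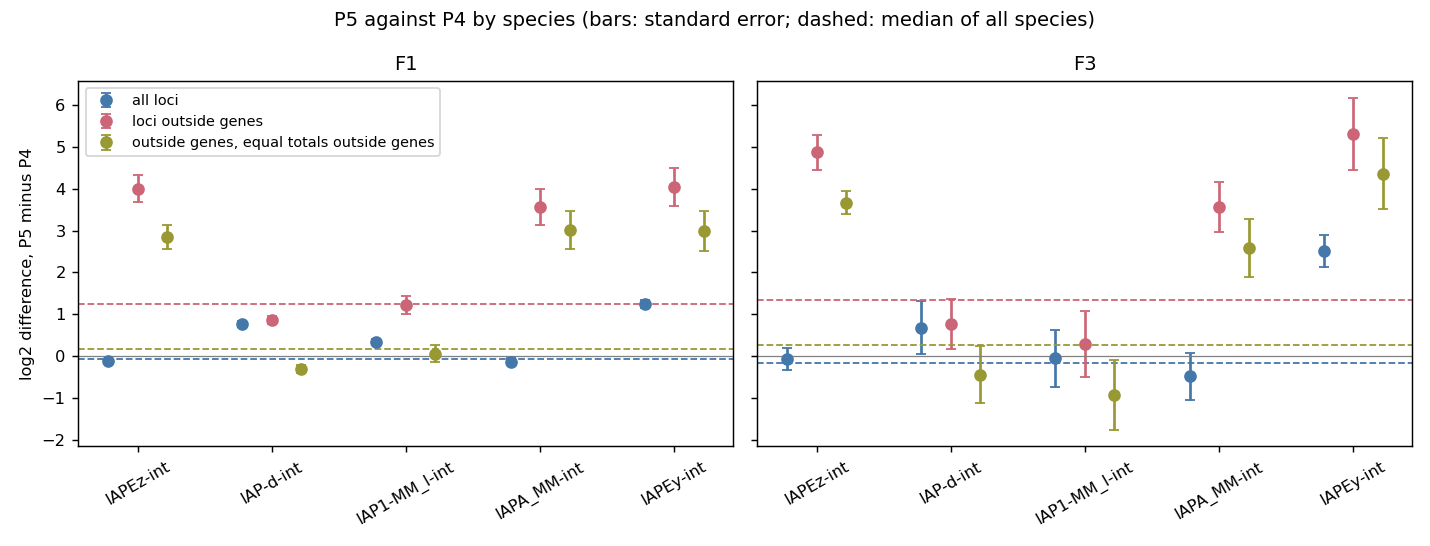
Difference between P5 and P4 (log2 scale, points with standard error) for each species in F1 and F3, over all loci, over loci outside genes, and outside genes with equal totals there, with dashed lines at the median of all species. IAPEz-int, IAPA_MM-int and IAPEy-int outside genes stood at 2.58 or more under both scalings in both generations, while IAPEz-int over all loci lay near 0.

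At single loci, P5 against P4 in F1 gave 73 of 460 members higher (15.9%, all loci 17.0%) and 99 lower (21.5%, all loci 20.3%). Under equal totals the split was 81 higher (17.6%) and 73 lower (15.9%), against 20148 higher (19.9%) and 10756 lower (10.6%) of all loci, with a median of -0.04 for members and 0.03 for all loci. The shares differed by place. Outside genes 32 of 56 were higher (57.1%, all such loci 42.8%) and 0 lower (3.15%), with a median of 1.38 against 0.80. These shares are descriptions, because the filter took the mean over P4 and P5, and 23 of the 56 reached the minimum of 1.14 CPM in P5 alone, 18 of them called higher. Of the 33 that reached it in P4, 14 were higher and 0 lower, beside 496 higher and 144 lower of 2726 such loci of any species. In introns 35 of 372 were higher (9.41%, all 15.6%) and 91 lower (24.5%, all 21.3%), with a median of -0.24 against -0.14. In F3, 17 of 460 were higher (3.70%, all 0.985%) and 0 lower (all 0.0112%), with 12 of 102 outside genes (11.8%, all 4.41%) and 3 of 323 in introns (0.929%, all 0.392%). All 17 reached the minimum of 1.32 CPM in P5 alone and not in P4, as did 905 of the 966 loci of any species called higher, so these counts are no support for a rise in the members.

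Among called members whose P4 and P5 libraries did not overlap, the largest difference in F1 was at IAP-d-int chr6:107280317-107280467, 151 bases outside genes in which every 75-base word was unique. It reached the minimum mean in P5 alone, the population where it was high. Its level was 0 to 0.686 CPM in the 12 P4 libraries, with a median of 0, and 0.957 to 5.17 in the 11 P5 libraries, with a median of 2.65. All P5 libraries were above all P4 libraries (3.08 ± 0.39, limma FDR 1.45e-07), and it had no read in any P6 library. In F3 it had 0 to 1.96 CPM in P4 and 4.33 to 130 in P5 (median 9.27), again without overlap (4.34 ± 0.82, FDR 0.00587). The other locus named in F3 was IAP1-MM_I-int chr17:34543814-34544066 in an intron of the pseudogene Btnl7-ps, with 0 to 1.82 CPM in P4 and 2.57 to 31.6 in P5 (4.49 ± 0.78, FDR 0.00276). Both loci reached the minimum in F3 through P5 alone. Neither locus shared its counts with another LTR locus in these populations.

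The second locus named in F1 lay in a gene of the piRNA pathway. IAPEz-int chr15:89039046-89039760, antisense in an intron of Mov10l1, the helicase that starts piRNA production, had a median of 11.9 CPM in P4, where the highest was 21.1, and 49.7 in P5, where the highest was 69.5, with no overlap (2.00 ± 0.16, limma FDR 8.61e-12). In F1 P4 it shared its reads with 9 other LTR loci of Mov10l1. All 29 tested LTR loci of that gene, elements of other species included, were higher in P5, and their reads cannot be told apart from those of the gene. The lower loci named were IAPEz-int chr17:74759442-74765909 in Ttc27, with 24.4 CPM in P4 and 15.6 in P5 as medians (-0.69 ± 0.11), and IAPEz-int chr14:21364534-21365566 in Adk, which encodes adenosine kinase, with 21.1 and 14.8 (-0.56 ± 0.11). The P4 and P5 libraries did not overlap at either, and both shared their P4 reads with other loci of the gene, 5 in Ttc27 and 13 in Adk counting themselves.

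Members in genes moved with the rest of their gene. For 383 member loci of F1 with at least 3 other tested LTR loci in the gene, the P5 minus P4 difference had a Pearson correlation of 0.886 and a Spearman correlation of 0.844 with the median of those other loci. Of these loci, 27 of the 30 called higher and 97 of the 99 called lower had a host median of the same sign. In F3 the correlations were 0.773 and 0.834 over 326 loci. They are descriptions across loci that share libraries and, in part, the very same reads.

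**Figure D5:**
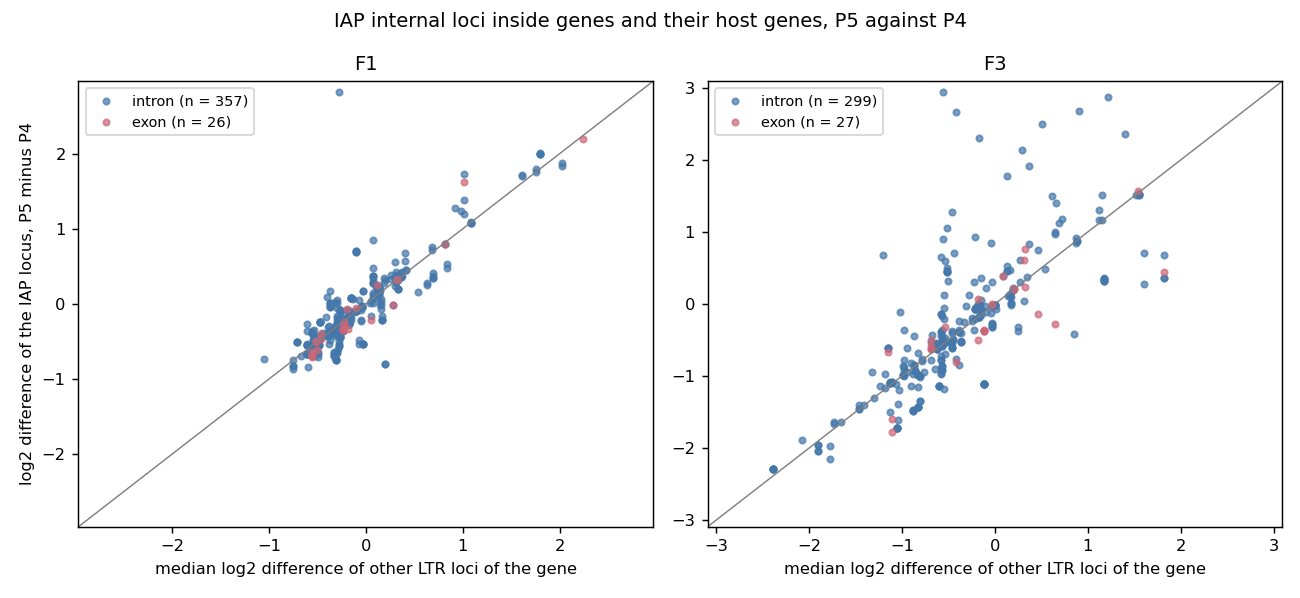
Difference between P5 and P4 (log2 scale) of each IAP internal locus in a gene, on the vertical axis, against the median of the other LTR loci of that gene, on the horizontal axis, in F1 (383 loci) and F3 (326 loci), with intronic and exonic loci coloured and a line at equality. The points followed the line, with Pearson correlations of 0.886 and 0.773.

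Genes that silence retrotransposons were read through the LTR loci they contain, which 22 of the 24 listed genes had. In F1 30 of their 266 tested loci were higher in P5, 29 of them in Mov10l1, and 194 were lower, beside the 17.0% higher and 20.3% lower of all loci, with a median of -0.52 against -0.11 for all loci. With libraries brought to equal totals 34 were higher and 148 lower, beside 19.9% and 10.6% of all loci, and the medians were -0.36 and 0.03. The lower ones included 71 of 71 loci of Morc1, a MORC ATPase needed for transposon repression in male germ cells, 19 of 19 of Piwil2 and 10 of 10 of Piwil4, the PIWI proteins of fetal germ cells, and 9 of 9 of Tdrd1, their Tudor partner. Each gene counts as 1 observation rather than as many, since its loci share reads. Morc1, Piwil2, Piwil4, Tdrd1, Tdrd5 and Tdrd9 also belonged to the germ cell marker list, so most lower loci were counted in both lists. Of these genes, Tdrd9 had 38 of 40 loci lower, and 0 under equal totals. In F3, 0 of 267 were called in either direction under either scaling, beside 0.985% of all loci higher and 0.0112% lower, and no TBT comparison called any. These values are of transcripts over LTR loci in those genes, not of the genes' exons.

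Methylation was measured by binding of methylated DNA in P6 cells, in windows of 100 bases with 836 windows in members in F1 and 853 in F3. Of 175 tested member windows in F1, 0 were called between TBT and DMSO by edgeR's quasi-likelihood test, against 0.0318% of 34559 windows, and 0 of 228 in F3, against 0.0% of 47563. At an unadjusted p under 0.05 there were 12 and 29 member windows, against 1746 and 2455 of all windows, and DESeq2 called 0 in both. The 29 of F3 became 16 without TBT 12, 35 without TBT 8 and 17 in DESeq2, against 2247, 2932 and 915 of all windows. The median log2 difference of the member windows was 0.02 in F1 and 0.10 in F3, against -0.00038 and 0.0031 for all windows. With 1 library left out the member median ranged from -0.014 (without DMSO 2) to 0.088 (without DMSO 3) in F1. In F3 it ranged from 0.062 (without DMSO 4) to 0.118 (without TBT 8). In F3 153 of the 228 were positive. The share positive over all windows is not given, and the windows share the same libraries, so this count is a description. Of the counts of a library, member windows took 0.447% to 0.554% in F3 DMSO and 0.405% to 0.614% in F3 TBT, and these ranges overlapped.

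The level of binding in members depended on CpG content. In windows with more than 6 CpGs, members had 12.2 ± 1.08 and 13.3 ± 1.19 CPM in DMSO (SD, n = 3) and TBT (SD, n = 4) of F1, against 8.41 and 8.64 in all other windows, and 13.3 and 15.4 against 8.73 and 9.42 in F3. In windows with 4 to 6 CpGs the order was the opposite, with 6.36 in members against 15.4 elsewhere in the TBT group of F1, and 7.53 and 8.26 against 17.5 and 18.2 in the DMSO and TBT groups of F3. Members thus lay above other windows at the highest CpG content and below them at the next in both generations. No window fell in the loci named by level, and the share of reads with several alignments that was kept is not given in the sources used here.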

How the data were processed

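RNA libraries (62) and libraries of methylated DNA (19) were taken as deposited, and samples were grouped by their labels. Per the study's methods, the authors trimmed 75-base paired reads with Trim Galore, aligned them to GRCm38/mm10 with STAR and counted them at LTR loci of RepeatMasker with a modified ERVmap, and the submitters' processing notes name the same tools and edgeR, without versions. The deposited signal values are CPM after TMM scaling by the authors, in 4 tables scaled separately (F1 and F3, germline and somatic). Each value was a whole number of reads in all libraries at a tolerance of 0.02 read, and those reads were recovered for count tests. The deposited counts of methylated DNA fragments are raw counts per 100-base window, beside a CpG number per window which served to group windows (701493 to 1913353 counts per library in F1, 1105120 to 1556376 in F3).

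The members and gene lists were chosen with earlier results of these data known. Genes were those of GENCODE vM21 (55450), and sequences came from the GRCm38 RefSeq reference. Values were tested with limma 3.58.1 on log2(value + 1 unit), with 1 unit the median value of 1 read in the libraries fitted (0.181 to 0.294 CPM), over every locus whose mean reached 5 units and over all 680 species, at a Benjamini-Hochberg FDR of 0.05. P5 and P4 of a generation were fitted together. For windows, edgeR 4.0.16 (quasi-likelihood) was used. Alternatives were edgeR and DESeq2 1.42.0 on recovered reads, other pseudocounts, filters and scalings, the label number as a block, and leaving out each library. Named loci were the 3 highest per population, up to 2 called members per direction whose groups did not overlap, and the lowest p where none was called. The scripts used R 4.3.3, Python 3.11.15, pandas 2.3.3, numpy 2.4.6, pysam 0.24.0, bedtools 2.31.1 and matplotlib 3.10.9, and tests were checked on simulated data.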

Additional observations from a re-analysis of the deposited data

Results flagged for a closer look

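Of 60 groups of species totals, 4 had a library set apart from the rest by Dixon's criterion, which chance meets in about 1 group in 20. IAP-d-int in F3 P6 DMSO had its highest total in replicate 3, at 84.8 CPM, against 72.3 to 73.8 in the other 3. IAPA_MM-int in F3 P5 TBT had its lowest total in replicate 5, at 2.87 CPM, against 73.2 to 88.9 in the other 4, and that library had the fewest reads of all. IAPEy-int in F3 P6 DMSO had its lowest total in replicate 1, at 40.6 CPM, against 55.8 to 57.6 in the other 3. IAPEz-int in F1 P5 DMSO had its highest total in replicate 44-1, at 3426 CPM, against 3249 to 3264 in the other 3.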

How the results depend on the processing

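The exposure comparisons rested on few calls. The 1 member locus called in F1 P5 became 0 with a pseudocount of 0.25 unit, with a minimum mean of 20 units, with edgeR's quasi-likelihood test, with DESeq2 and with a random effect for the first number of the label, 5 with edgeR's likelihood ratio test, which the study names, and 15 without a filter (0.302%, all loci 0.202%). It was 0 to 2 with 1 library left out, 0 without DMSO 43-4 or 44-1 or TBT 45-4, 45-5, 47-1, 47-3 or 47-4, and 2 without DMSO 48-4. In place of 0, the likelihood ratio test called 1 member locus in F1 P6 (44 of 88037 loci in all), 17 in F3 P5 (3297 of 105423), 3 in F3 P6 (335 of 104835) and 1 for the interaction in F3 (14 of 98076), and its 5 in F1 P5 stood among 391 of 122303. In F3 P6 the quasi-likelihood test and DESeq2 called 1 each, and leaving out 1 library gave 0 to 1 (1 without DMSO 2 or DMSO 4). Without TBT 7 and 8 in F1 P6, or TBT 5 and 9 in F3 P4, choices made after seeing the data, 0 loci and 0 species were called.

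For P5 against P4, the 172 member loci of F1 became 272 without a filter (5.33%, all loci 7.66%) and 160 to 179 with 1 library left out, and the 4 species 3 to 4. The 17 of F3 became 10 without a filter (0.194%, all loci 0.0949%), 6 at a minimum mean of 20 units (3.85%, all loci 0.583%), 80 with the quasi-likelihood (17.4%, all loci 6.56%) and 89 with the likelihood ratio test (19.3%, all loci 9.25%), and 10 to 34 with 1 library left out, with 34 without P5 TBT 5 (7.30%, all loci 3.06%) and 10 or 11 without P5 TBT 9 or any 1 P4 DMSO library. The 1 species of F3 became 2 under equal totals (all species 18.53%) and in the likelihood ratio test (11.6%), 3 outside genes (51.3%) or with equal totals there (21.0%), against 2.79% of all species, and 1 to 2 with 1 library left out (2 without P5 TBT 5). Equal totals turned IAPEz-int to 0.035 in F1 and 0.24 in F3. Loci outside genes turned IAPEz-int to 4.00 in F1 and 4.87 in F3 and IAPA_MM-int to 3.57 in both, and with equal totals outside genes these were 2.85, 3.67, 3.02 and 2.58, with IAP-d-int at -0.31 in F1. The cause of these moves was not tested.

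P4 and P5 libraries shared only a label number. With it as a replicate block, 33 member loci were called in F3 (7.17%, all loci 2.20%) and 191 in F1 (41.5%, all loci 42.98%), with 4 species in F1 and 0 interaction calls. Deviations of same-numbered libraries correlated at over 0.1 in 7 of 11 pairs in F1 (-0.012 to 0.499, 8 closest to their own number) and in 7 of 9 in F3 (-0.202 to 0.584, 5 closest). Of 1483 alternatives for single species and loci, 1434 stayed on the same side of the threshold, and 77 changed sign without a call under either setting. The shallowest library, F3 P5 TBT 5, held 246520 reads at LTR loci.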
